A study of Rattus norvegicus with 24 samples.

Results

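The fatty acid synthesis genes of the rat tibialis anterior (TA), the large dorsiflexor muscle of the shin, were followed across limbs that had been inactive, had been inactive and then recovered, or had been inactive on 2 occasions. The set held 10 genes, Scd, Fasn, Acaca, Acly, Elovl5, Elovl6, Srebf1, Thrsp, Me1 and Mlxipl, of 13458 gene symbols in the deposited table, and it was chosen by pathway after Scd had been seen as the gene with the largest rise in recovery. The recovery limbs, set against the 9 control limbs, therefore chose the set. Every comparison that includes the recovery limbs is given as a description, with no p-value and no interval. The control limbs took part in that choice too, so tests of Scd against them are not independent of it, and the right limbs of sham animals, which took no part, were used as a second control chosen after seeing the data. Counts past the threshold are printed for them as descriptions, and nothing is read from them. All 10 genes were found by their symbol, the row with the highest mean was used where a gene had several, and all 10 were above 0 in enough samples to enter the fit.

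The animals were 12 male rats of the strain Fischer 344 at an age of 23 ± 1 months, and the TA of both hind limbs was sequenced from each, giving 24 libraries. In 9 animals an osmotic pump delivered tetrodotoxin (TTX), a blocker of voltage-gated sodium channels, to the left common peroneal nerve, so that the left TA could not be driven to contract while the rats still walked. The atrophy animals (n = 3) received TTX for 6 to 7 days, the recovery animals (n = 3) then had 9 days without TTX, and the repeated atrophy animals (n = 3) received TTX for another 5 to 6 days after that recovery. The right limbs of these 9 animals, with no TTX, were pooled as the control group. The sham animals (n = 3, 1 for each time point) had the same operation without TTX, and both of their limbs were kept as separate groups. All groups shared the strain, the sex, the age class and the operation on the left side, no young animals were among these samples, and food intake was not measured for each rat.

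De novo synthesis makes palmitate from citrate. ATP citrate lyase (Acly) releases acetyl-CoA in the cytosol, acetyl-CoA carboxylase (Acaca) makes malonyl-CoA from it, and fatty acid synthase (Fasn) builds the chain with NADPH that is supplied in part by malic enzyme (Me1). Elongases such as Elovl5 and Elovl6 lengthen the product, and stearoyl-CoA desaturase (Scd) puts a double bond into it to give oleate and palmitoleate, the monounsaturated fatty acids of triglycerides and membranes. Srebf1 encodes SREBP-1, a transcription factor held in the endoplasmic reticulum until it is cleaved and moves to the nucleus, Mlxipl encodes ChREBP, which responds to glucose metabolites, and Thrsp (Spot 14) is a small lipogenic protein induced by thyroid hormone and carbohydrate. Liver and fat make most of the fatty acid of the body, and muscle mainly takes it up from the blood.

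The deposited values were read counts scaled to 1000000 per library (CPM), and the depth that their steps imply was 18900000 to 30900000 reads per library. Differences are given as log2 fold changes of the mean of log2(CPM + 1), which understate the change of genes near 1 CPM, and a gene passed the test where limma gave an adjusted p-value (Benjamini-Hochberg, over 14031 rows) of 0.05 or less together with a fold change of 1.2 or more. The median row was higher than in control by 0.22 on the log2 scale in atrophy and 0.20 in repeated atrophy, and by 0.02 in recovery. Samples were whole pieces of muscle, so more RNA of a gene per fibre and more cells of a type that expresses it cannot be told apart. The left limb of atrophy animal 2 stood apart from its group in a check chosen after its values had been seen. The 12 muscle fibre marker genes took 22.8% of its CPM, against 9.99% and 12.1% in the other 2 atrophy limbs and 21.7% to 29.0% in the control limbs. Chrna1, the acetylcholine receptor subunit that rises when a muscle loses its nerve activity, was at 69.9 CPM in that limb, 937.5 and 430.5 CPM in the other 2 atrophy limbs and 15.7 to 95.2 CPM in the control limbs. The values of the members in atrophy, and their counts, are therefore given with and without this animal.

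The upstream sequences of the genes on which the results turn are shown to give the regulatory context of the enzymes and of the 2 transcription factors. They are the 250 bases before the RefSeq transcript start on build GRCr8, 5′ to 3′ on the gene's own strand, and are a different build from the rn7 positions of the expression table. Capitals mark matches on either strand to 4 short motifs, which are TCANNCCA, CACGTG (an E-box), CCAAT (the NF-Y box) and GGGCGG (a GC box). TCANNCCA is a loosened form of TCACNCCAC, the sterol response element that SREBP binds. It lacks the last base and leaves 1 more base open, so a match is not the full element. The regions are Scd at chr1:253231732-253231981 on the minus strand, its neighbour Scd2 at chr1:253118127-253118376 on the plus strand, Thrsp at chr1:161138965-161139214 on the minus strand, Srebf1 start 1 at chr10:45529165-45529414 and start 2 at chr10:45519011-45519260, both on the minus strand, and Mlxipl at chr12:27213661-27213910 on the minus strand.
Scd: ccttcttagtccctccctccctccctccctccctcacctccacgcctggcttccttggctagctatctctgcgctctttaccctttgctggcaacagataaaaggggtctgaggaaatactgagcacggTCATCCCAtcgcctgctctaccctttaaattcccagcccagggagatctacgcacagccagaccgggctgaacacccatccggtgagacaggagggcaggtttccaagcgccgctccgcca
Scd2: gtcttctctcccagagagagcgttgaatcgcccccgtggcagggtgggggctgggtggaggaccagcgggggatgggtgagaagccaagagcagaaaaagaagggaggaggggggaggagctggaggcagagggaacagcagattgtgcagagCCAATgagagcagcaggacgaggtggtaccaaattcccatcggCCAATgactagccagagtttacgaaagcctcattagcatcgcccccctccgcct
Thrsp: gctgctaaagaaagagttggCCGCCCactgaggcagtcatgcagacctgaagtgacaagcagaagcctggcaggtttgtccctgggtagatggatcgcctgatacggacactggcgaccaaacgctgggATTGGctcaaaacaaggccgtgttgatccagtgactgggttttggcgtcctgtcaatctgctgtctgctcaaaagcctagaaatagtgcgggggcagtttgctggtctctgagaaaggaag
Srebf1 start 1: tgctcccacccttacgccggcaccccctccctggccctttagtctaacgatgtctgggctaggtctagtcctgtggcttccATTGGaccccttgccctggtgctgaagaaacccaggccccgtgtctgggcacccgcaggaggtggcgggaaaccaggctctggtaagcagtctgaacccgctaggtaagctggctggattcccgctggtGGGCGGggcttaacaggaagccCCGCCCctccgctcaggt
Srebf1 start 2: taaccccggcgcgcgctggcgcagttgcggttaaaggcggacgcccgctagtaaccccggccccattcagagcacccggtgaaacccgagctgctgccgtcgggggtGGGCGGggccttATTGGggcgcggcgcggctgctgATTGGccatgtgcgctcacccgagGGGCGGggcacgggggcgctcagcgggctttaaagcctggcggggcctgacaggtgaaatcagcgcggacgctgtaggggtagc
Mlxipl: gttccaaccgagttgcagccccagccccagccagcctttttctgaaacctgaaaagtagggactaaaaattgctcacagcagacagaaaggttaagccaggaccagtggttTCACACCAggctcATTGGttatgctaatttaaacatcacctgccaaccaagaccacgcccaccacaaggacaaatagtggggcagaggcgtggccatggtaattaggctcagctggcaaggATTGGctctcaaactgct

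TCANNCCA was found in the Scd window, as TCATCCCA at positions -121 to -114 from the start, and in the Mlxipl window, as TCACACCA at -139 to -132, and 13.0% of the 33469 rat promoters held it. The full TCACNCCAC (0.974% of promoters) and CACGTG (5.59%) were not in these 6 windows. CCAAT (34.0% of promoters) was found in Scd2, Thrsp, both starts of Srebf1 and Mlxipl, and GGGCGG (30.5%) in Thrsp and both starts of Srebf1. Srebf1 is known for alternative promoters that give SREBP-1a and SREBP-1c, and the starts shown lie 10154 bases apart. Entries were found for 7 of the 10 genes, and each match is a description of these letters only.

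In the control limbs Me1, Thrsp and the 2 transcription factors were above the other enzymes of the set. Per kilobase of transcript, the mean control level was 115 CPM for Me1, 35.3 for Thrsp, 34.0 for Srebf1 and 11.7 for Mlxipl. The desaturase Scd was at 3.57 CPM per kilobase, Elovl5 at 2.10, Acly at 1.78, Acaca at 0.758 and Fasn at 0.489. Elovl6 was at 0.0674 CPM per kilobase, and its values ran from 0 to 1.12 CPM over all 24 limbs, so that it is not read further.

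Scd (1:243269908-243282509 on rn7, minus strand) was higher in the TTX limbs, and in repeated atrophy its change was the largest of the 10 genes. Its level in the 9 control limbs was 15.96 ± 13.1 CPM (SD), with the lowest at 3.17, the median at 13.2 and the highest at 43.9. In the atrophy limbs it was 247, 20.9 and 56.1 CPM in animals 1, 2 and 3, and in the repeated atrophy limbs 45.3, 507 and 465. Every repeated atrophy limb lay above every control limb, the lowest of them by a small margin, and atrophy animal 2 lay within the control range. The log2 fold change against control was 2.40 ± 0.85 (SE) in atrophy (adjusted p = 0.048) and 4.11 ± 0.85 in repeated atrophy (adjusted p = 0.0014), and the 2 comparisons share the 9 control limbs, which had also served to choose Scd. Against the 3 sham right limbs (2.71 to 14.4 CPM), which had not, the value was 3.39 ± 1.05 in atrophy (adjusted p = 0.36) and 5.10 ± 1.05 in repeated atrophy (adjusted p = 0.043). With the animal as a block, atrophy gave 2.42 (adjusted p = 0.15) and repeated atrophy 4.01 (adjusted p = 0.0040). Without atrophy animal 2 the value in atrophy was 3.24 (adjusted p = 0.019), without animal 1 it was 1.58 (adjusted p = 0.36) and without animal 3 it was 2.37 (adjusted p = 0.13). Under TMM rescaling (trimmed mean of M-values) the change in atrophy was 2.05 (adjusted p = 0.12). In repeated atrophy the call held without each animal in turn, from 3.53 (adjusted p = 0.027, without animal 2) to 5.04 (without animal 1).

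In the recovery limbs, which chose the set, Scd was at 172, 217 and 1048 CPM. These 3 values lay above all control limbs, and animal 3 was the highest of the 24 limbs. The log2 difference from control was 4.73, and 3.94 without animal 3. Nothing is tested here.

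**Figure D1:**
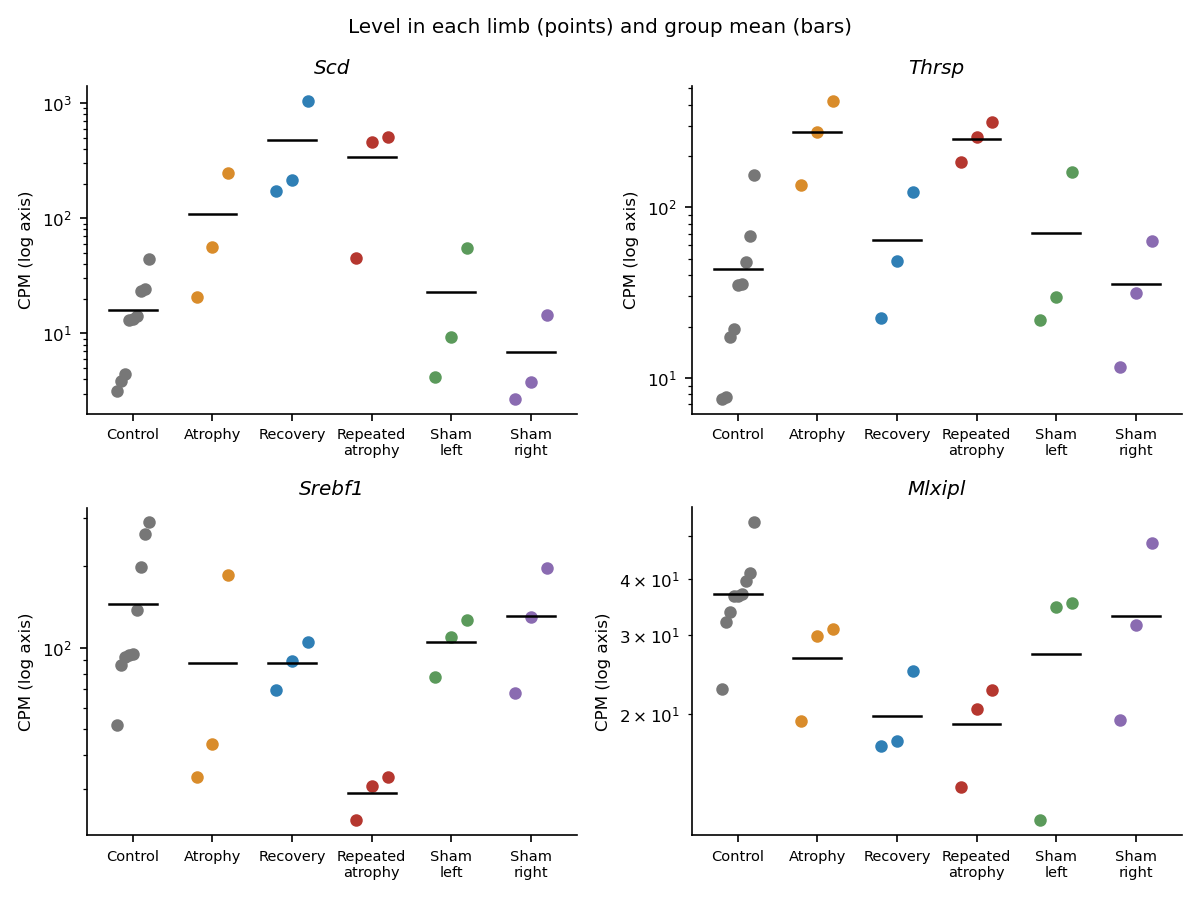
CPM of Scd, Thrsp, Srebf1 and Mlxipl in each of the 24 limbs on a log axis, by group, with a bar at each group mean. Scd in repeated atrophy (45.3 to 507 CPM) lies above the control limbs (3.17 to 43.9) and Srebf1 in repeated atrophy (23.1 to 33.3) below them, while 1 atrophy limb lies among the control limbs for both.

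Scd2, a second stearoyl-CoA desaturase gene (1:243169171-243182232, plus strand), is no member of the set but lies beside Scd and makes a near relative of its protein, so that reads could be split between them. Its control level was 45.7 ± 17.3 CPM. It was at 230, 51.4 and 67.1 CPM in the atrophy limbs, at 134, 105 and 250 in the recovery limbs and at 77.7, 273 and 335 in the repeated atrophy limbs. In repeated atrophy it rose by 2.14 ± 0.45 on the log2 scale (adjusted p = 0.0017), and in atrophy the value was 1.09 (adjusted p = 0.089). Against the sham right limbs Scd2 was 2.33 higher in repeated atrophy (adjusted p = 0.084). Its atrophy value was 1.53 (adjusted p = 0.034) when animal 2 was left out. Limbs with much Scd also had much Scd2, and the lowest repeated atrophy limb was the same for both, animal 1. Over the 24 limbs Pearson's r of log2(CPM + 1) between them was 0.91, the highest of 10136 rows with a mean of at least 1 CPM. These limbs come in pairs from 12 animals and share their groups, so r is a description.

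**Figure D2:**
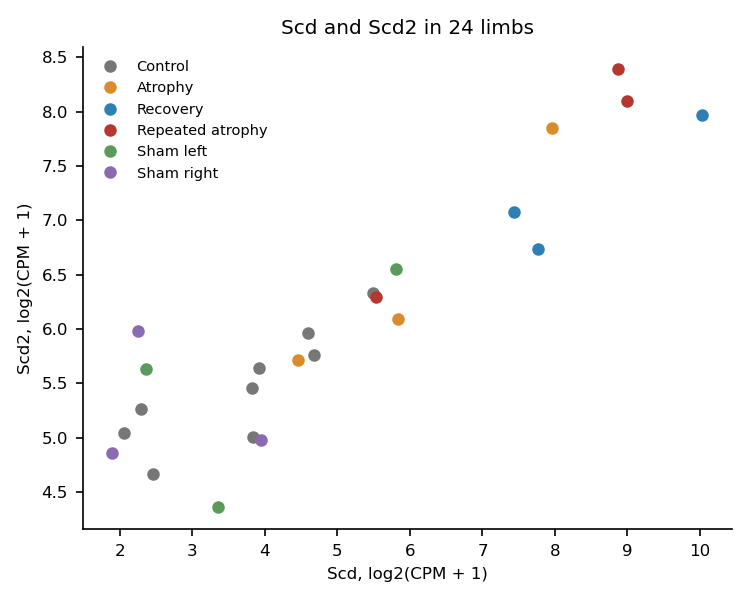
CPM of Scd (x axis, log scale) against CPM of Scd2 (y axis, log scale) in the 24 limbs, 1 point per limb, marked by group. The limbs run along a single band, with r = 0.91 on the log2(CPM + 1) scale.

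The enzymes that make palmitate did not pass the test in atrophy or repeated atrophy. Acly (10:85412045-85463280, minus strand) was at 7.64 ± 2.23 CPM in control, at 12.4, 11.5 and 9.41 in atrophy and at 5.92, 9.43 and 14.6 in repeated atrophy. Its log2 fold change was 0.52 in atrophy (95% interval -0.12 to 1.16) and 0.31 in repeated atrophy (-0.33 to 0.95). Acly has a second row that held 49.1% of its CPM in control, and reads may have been divided between the rows. Acaca (10:69082822-69274488, plus strand) was at 5.33 ± 1.13 CPM in control, at 6.32, 3.61 and 10.4 in atrophy and at 1.97, 7.48 and 10.1 in repeated atrophy. Both TTX groups held limbs above and below the control mean. The log2 fold change of Acaca was 0.22 in atrophy (-0.45 to 0.89) and 0.06 in repeated atrophy (-0.61 to 0.73), and both values change sign under TMM rescaling. Leaving out atrophy animal 2 gave 0.57 for Acly and 0.53 for Acaca in atrophy, and neither passed.

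Fasn (10:106072093-106090260, minus strand) was at 4.47 ± 1.82 CPM in control. It was at 4.66, 2.31 and 4.13 CPM in atrophy and at 2.01, 7.41 and 12.0 in repeated atrophy. The log2 fold change was -0.19 in atrophy (-0.93 to 0.55) and 0.40 in repeated atrophy (-0.34 to 1.14). Repeated atrophy animal 1 was the lowest of its group for Scd, Acaca, Acly and Fasn, and without it Fasn was 0.94 above control (adjusted p = 0.034). In atrophy Fasn was at -0.01 without animal 2. In recovery Fasn was at 5.26, 5.44 and 6.76 CPM, Acaca at 4.50, 5.28 and 6.81, and Acly at 11.1, 8.06 and 3.21. Recovery animal 3, which had the most Scd, had the most Fasn and Acaca of its group. It had the least of the first Acly row but the most of the second, which was at 7.89, 10.03 and 13.4 CPM in recovery, so that no order of Acly is read from these limbs.

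Elovl5, the elongase of polyunsaturated fatty acids (8:78829846-78855644, plus strand), was at 1.89 ± 0.417 CPM in control. It was at 1.97, 0.807 and 2.28 CPM in atrophy, 3.09, 2.01 and 3.16 in recovery and 1.30, 2.80 and 2.60 in repeated atrophy. Neither tested difference passed, with -0.14 in atrophy and 0.14 in repeated atrophy. Me1 (8:87549043-87660252, minus strand), the most abundant member, was at 354 ± 61.6 CPM in control, at 431, 428 and 205 in atrophy, at 290, 277 and 330 in recovery and at 342, 335 and 321 in repeated atrophy. Its log2 fold changes were -0.06 in atrophy and -0.07 in repeated atrophy. Elovl5 was at 0.10 and Me1 at -0.17 in atrophy without animal 2, and neither passed.

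Thrsp (1:151723415-151727741, minus strand) rose in both TTX groups. The control limbs ran from 7.56 to 154 CPM with a mean of 43.5 ± 45.8, a wide spread for 9 limbs of one muscle. The level was 277, 135 and 420 CPM in the atrophy limbs and 314, 257 and 184 in the repeated atrophy limbs. All repeated atrophy limbs were above the highest control limb, and atrophy animal 2 was below it. The log2 fold change was 3.08 ± 0.69 in atrophy (adjusted p = 0.0089) and 3.05 ± 0.69 in repeated atrophy (adjusted p = 0.0028). Against the sham right limbs the values were 3.08 (adjusted p = 0.36) and 3.06 (adjusted p = 0.038). With the animal as a block the values were 1.78 (adjusted p = 0.18) and 2.91 (adjusted p = 0.0073). Without atrophy animal 2 the value in atrophy was 3.67 (adjusted p = 0.0029) and without animal 1 it was 3.04 (adjusted p = 0.13). In recovery Thrsp was at 48.7, 22.6 and 123 CPM, all within the control range, and the difference from the pooled control was 0.82. The right limbs of the recovery animals had the lowest Thrsp of the control group, and within animals the left limb was higher in 3 of 3.

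Srebf1 (10:45007637-45019496, minus strand) was lower after repeated inactivity. It was at 145 ± 84.7 CPM in the control limbs, with values from 51.6 to 289. It was at 33.4, 185 and 43.9 CPM in the atrophy limbs and at 33.3, 23.1 and 30.8 in the repeated atrophy limbs. The repeated atrophy limbs were all below every control limb, as were atrophy animals 1 and 3, while atrophy animal 2 was within the control range. The log2 fold change was -2.09 ± 0.48 in repeated atrophy (adjusted p = 0.0029; adjusted p = 0.0078 with the block) and -0.94 ± 0.48 in atrophy (adjusted p = 0.16). Against the sham right limbs the value in repeated atrophy was -2.02 (adjusted p = 0.092). Without atrophy animal 2 the value in atrophy was -1.60 (adjusted p = 0.014). In recovery Srebf1 was at 104, 69.7 and 89.0 CPM, all within the control range, with a difference of -0.53.

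The table holds a second row for Srebf1 whose start lies 10155 bases upstream of the first on rn7. It was at 29.6 ± 13.7 CPM in control and 19.5 ± 5.05 CPM in repeated atrophy, and its log2 fold change of -0.48 did not pass (adjusted p = 0.45). The second row held 18.3% of the CPM of both rows in control (11.5% to 34.7%) and 40.2% in repeated atrophy (30.4% to 45.7%). These ranges overlap and how reads were divided between the rows is not given, so the split is uncertain. With the rows summed, Srebf1 fell by 1.65 on the log2 scale in repeated atrophy (adjusted p = 0.0072).

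Mlxipl (12:21543566-21577113, minus strand) also fell in repeated atrophy. It was at 37.1 ± 8.19 CPM in the control limbs (22.8 to 53.6), at 19.3, 29.9 and 31.0 in atrophy and at 13.7, 20.6 and 22.7 in repeated atrophy. The repeated atrophy limbs lay below every control limb, the highest of them by a small margin. The log2 fold change was -0.93 ± 0.21 in repeated atrophy (adjusted p = 0.0029; adjusted p = 0.0075 with the block) and -0.46 ± 0.21 in atrophy (adjusted p = 0.13). Against the sham right limbs the value in repeated atrophy was -0.71 (adjusted p = 0.28). In atrophy it passed without animal 2 (-0.63, adjusted p = 0.038) and under TMM rescaling (-0.81, adjusted p = 0.035). In recovery the limbs were at 17.46, 24.97 and 17.02 CPM, and the difference from control was -0.86, which was past the threshold without the block and not with it.

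**Figure D3:**
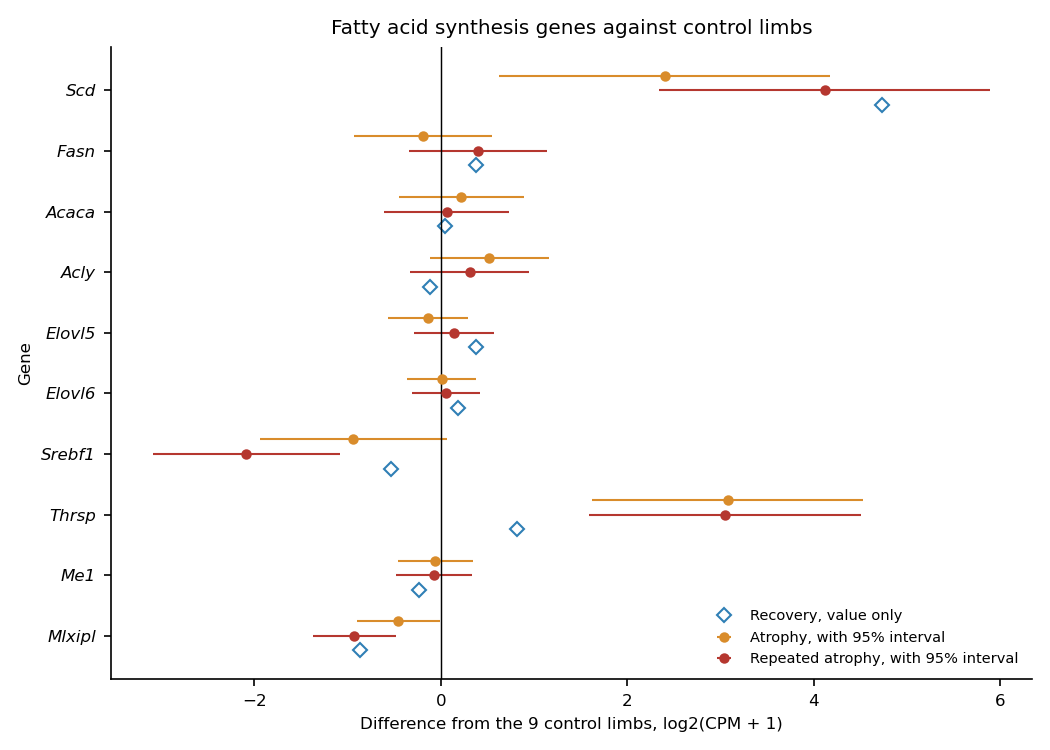
Log2 fold change of the 10 genes from the 9 control limbs in atrophy, recovery and repeated atrophy, with 95% intervals for atrophy and repeated atrophy and the value alone for recovery. Scd and Thrsp lie above 0 with their intervals in both TTX groups, and Srebf1 and Mlxipl below 0 in repeated atrophy, while the intervals of the remaining 6 genes cross 0 in both. In atrophy the interval of Mlxipl also lies below 0 (-0.902 to -0.009), though Mlxipl did not pass, and that of Srebf1 crosses 0.

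Of the 10 genes, 2 passed higher (Scd, Thrsp) and 0 lower in atrophy, where 20.3% of all rows passed higher and 2.33% lower. In repeated atrophy 2 passed higher (Scd, Thrsp) and 2 lower (Srebf1, Mlxipl), where 28.1% of all rows passed higher and 6.24% lower. The shares of the members that rose are thus near those of all rows. The median log2 fold change of the 10 genes was -0.03 in atrophy and 0.10 in repeated atrophy, against 0.22 and 0.20 for all rows. Under TMM rescaling, which moves the median of all rows to about 0, the members' counts were 1 higher and 1 lower in atrophy (4.73% and 4.95% of all rows) and 2 and 2 in repeated atrophy (13.1% and 12.1%). The count in atrophy was 4 without animal 2 (2 higher and 2 lower, with 30.7% and 3.85% of all rows). It was 0 without animal 1, where 1 of 13993 rows passed, and 1 without animal 3, where 1830 of 13962 rows did. It was also 1 without repeated atrophy animal 2 (2382 of 13974 rows) or without any 1 of the recovery animals (2072 to 2365 rows), whose limbs share the estimate of the spread. With the animal as a block no member and none of the 14031 rows passed in atrophy (2678 rows had an unadjusted p below 0.05 by limma with the block, and 5203 without it), while the 4 members passed in repeated atrophy (21.5% of all rows higher and 5.66% lower). In repeated atrophy the same 4 genes did not overlap with the control limbs, where 16.5% of all rows were higher and 3.87% lower without overlap, and in atrophy 0 members did (4.75% and 0.520%). Without atrophy animal 2, Scd and Thrsp lay above and Srebf1 below the control limbs without overlap (25.0% and 3.54% of all rows). Against the 3 sham right limbs 0 members and 0 of 13746 rows passed in atrophy (1580 rows at an unadjusted p below 0.05 by limma), and in repeated atrophy Scd and Thrsp passed higher and 0 members lower (1.32% and 0.633% of all rows). In the recovery limbs, whose values chose the set, 1 member was past the threshold above control (Scd) and 1 below it (Mlxipl), with 4.40% and 3.33% of all rows (6.02% and 6.04% under TMM rescaling). With the block Scd was past it and Mlxipl was not (0.0428% of all rows higher and 0.0214% lower). Scd alone did not overlap with the control limbs (5.57% of all rows higher and 4.84% lower). Between the recovery limbs and the atrophy limbs 0 members were called (3.34% of all rows higher in recovery, 14.5% lower), and between repeated atrophy and recovery 0 were (2941 of 14031 rows higher in repeated atrophy, 882 lower). Nothing is read from the counts that include the recovery limbs.

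Whether the second period of TTX differed from the first was tested directly between the left limbs. By limma 0 of the 10 genes passed, and 5 of 14031 rows did (0.0143% of rows higher and 0.0214% lower), with 884 rows at an unadjusted p below 0.05. Scd was 1.71 higher in repeated atrophy on the log2 scale (95% interval -0.46 to 3.89, adjusted p = 0.91), and without atrophy animal 2 it was 0.90 higher. Thrsp differed by -0.03 (-1.81 to 1.76), and with the animal as a block by 1.13 (adjusted p = 0.80). Srebf1 was -1.15 (-2.38 to 0.08, adjusted p = 0.84), and its repeated atrophy limbs (23.1 to 33.3 CPM) were all below the atrophy limbs (33.4 to 185), the nearest by a small margin, as were 4.23% of all rows (2.79% were all above). The difference of Srebf1 was -0.40 without atrophy animal 2. Mlxipl was -0.47 (-1.02 to 0.07). The intervals are wide, and these 3 against 3 limbs show neither that Scd differed between the TTX periods nor that it did not.

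Each left limb was also set against the right limb of its own animal. The left minus right log2 difference of Scd was 3.36, 0.53 and 3.38 in atrophy, 5.15, 3.10 and 6.20 in recovery, and 3.47, 5.17 and 3.37 in repeated atrophy. It was positive in the 6 animals of the TTX groups tested, and also in the 3 recovery animals that chose the set, and was smallest in atrophy animal 2. For Thrsp it was 2.92, 0.98 and 1.44 in atrophy, 2.52, 0.36 and 3.86 in recovery, and 3.96, 2.84 and 1.93 in repeated atrophy. Srebf1 differed by -2.93, -0.10 and -0.23 in atrophy, by 0.14, -0.43 and -0.05 in recovery, and by -1.35, -2.53 and -3.19 in repeated atrophy. The right limb of atrophy animal 3 had the lowest Srebf1 of the control group, 51.6 CPM, so that its low left limb gave almost no difference within the animal. Mlxipl differed by -0.89, 0.38 and -0.24 in atrophy, by -1.14, -0.55 and -0.95 in recovery, and by -1.17, -0.97 and -1.20 in repeated atrophy. Atrophy animal 2 was the TTX animal in which Mlxipl was higher on the left. In repeated atrophy 3 members (Scd, Thrsp and Elovl6, the last between 0 and 0.390 CPM in these limbs) were higher and 2 lower on the left in all 3 animals, against 40.6% and 13.6% of all rows, and in atrophy 2 were higher and 1 lower, against 25.5% and 7.60%. The atrophy counts without animal 2 were 6 higher and 2 lower in both remaining animals, against 54.5% and 14.9%. In recovery 3 were higher and 2 lower (29.8% and 14.9% of all rows), and in the sham animals 0 and 0 (15.1% and 9.36%).

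**Figure D4:**
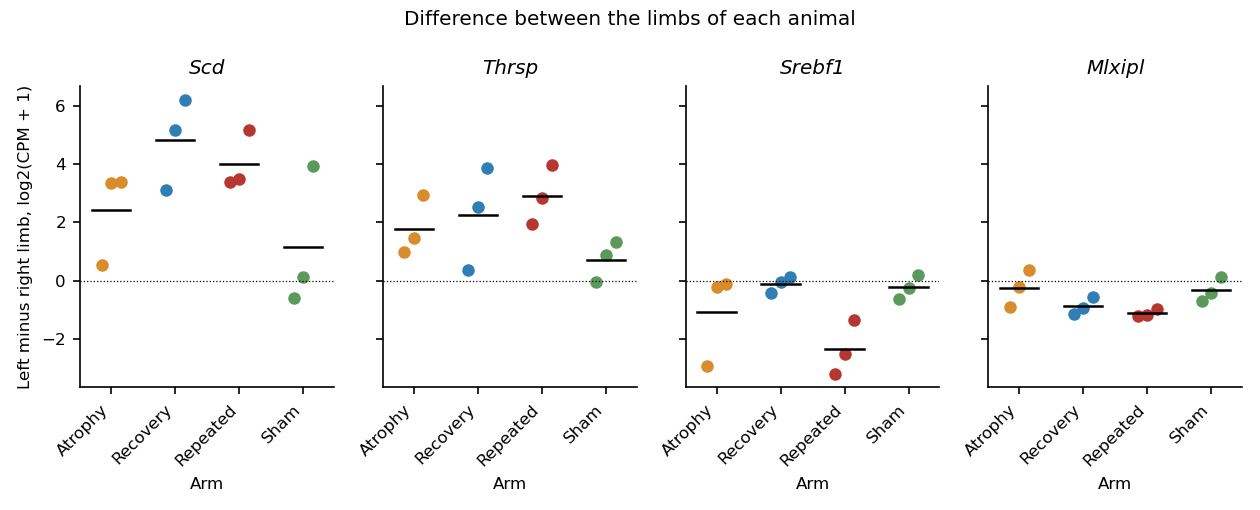
Left minus right log2(CPM + 1) of Scd, Thrsp, Srebf1 and Mlxipl for each of the 12 animals, by arm, with 1 point per animal and a line at 0. Scd is above 0 in all atrophy and repeated atrophy animals and in 2 of the 3 sham animals. It is also above 0 in the recovery animals, whose limbs chose the set. Srebf1 is below 0 by 1.35 to 3.19 in the repeated atrophy animals.

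The operation alone was covered by the sham animals. Scd was at 4.15, 54.9 and 9.24 CPM in the sham left limbs and at 3.76, 2.71 and 14.4 in the sham right limbs. Sham animal 2 thus had a left limb above the whole control range and a left minus right difference of 3.91, within the 0.53 to 6.20 of the TTX animals, while the other 2 animals differed by 0.12 and -0.58. The log2 difference of Scd between sham left and right was 1.15 (95% interval -1.0 to 3.30). Thrsp was at 29.9, 21.9 and 160 CPM on the left and 31.3, 11.6 and 63.3 on the right, Srebf1 at 109, 78.1 and 126 on the left and 129, 67.8 and 196 on the right, and Mlxipl at 11.6, 34.7 and 35.5 on the left and 19.4, 31.6 and 48.2 on the right. By limma 0 members and 0 of all rows passed for sham left against sham right (576 rows at an unadjusted p below 0.05) and for sham left against control (1904 rows). Without sham animal 2, 118 rows passed for sham left against control, and without sham animal 3, 8 rows did, and still 0 members. The smallest p of a member between the sham limbs was that of Thrsp, with a difference of 0.71 (unadjusted p = 0.039, adjusted p = 0.94).

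The right limbs, which received no TTX, varied between arms. Thrsp was at 35.7, 67.9 and 154 CPM in the right limbs of the atrophy animals, 7.69, 17.3 and 7.56 in those of the recovery animals and 19.2, 34.9 and 47.5 in those of the repeated atrophy animals. All 3 right limbs of the recovery animals were below those of the atrophy and repeated atrophy animals. The share of all rows in the same order was not computed, so nothing about Thrsp is read from it. Against the sham right limbs the difference was -1.42 in recovery (adjusted p = 0.28) and 1.30 in atrophy (adjusted p = 0.92), and 0 members and 0 rows passed for any arm (691 to 2421 rows at an unadjusted p below 0.05). The 0 rows for the recovery animals rested on sham animal 2, without which 1172 rows passed (158 higher and 1014 lower), as did 6 rows for the repeated atrophy animals, and Thrsp was then -2.04 in recovery (adjusted p = 0.053). Acly was -0.67 in the right limbs of the recovery animals against sham (adjusted p = 0.28), and Scd was between 0.90 and 1.10 higher in the 3 arms than in sham with intervals that cross 0.

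Over the 12 right limbs, Scd was compared with the other 9 members. Its Pearson's r with Srebf1 was 0.73 (permutation p = 0.00905, adjusted p = 0.081 over 9 relations) and Spearman's rho was 0.68 (permutation p = 0.0186, adjusted p = 0.17). Without the 2 limbs farthest from the median of Scd, r was 0.66. The relation failed the correction on the deposited scale and passed under TMM rescaling (r = 0.75, adjusted p = 0.042). In the 9 control limbs alone r was 0.74 (exact permutation p = 0.023, adjusted p = 0.21). For Mlxipl r was 0.48 (permutation p = 0.115, adjusted p = 0.52), and the other 7 members were between -0.41 and 0.22. Over all 24 limbs, which mix the groups, r with Srebf1 was -0.43, given as a description.

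The rows most like Scd over the 24 limbs after Scd2 (0.91) were Epn3 and Mcu (0.88 each), Cilp and Cpeb1 (0.87 each), and Npr3, Bgn, Armcx2, Mttp and Myh3 (0.86 each). Mcu encodes the pore of the mitochondrial calcium uniporter, Bgn the matrix proteoglycan biglycan, Mttp the protein that loads lipid onto apolipoprotein B, and Myh3 embryonic myosin heavy chain. Of the members, Thrsp had r = 0.50 with Scd (rank 1495 of 10136), Fasn 0.38 and Acaca 0.34, and Srebf1 stood near the other end with rank 9359. Over the 12 right limbs the most alike rows apart from the members were Syt3 (0.80), Zfhx2, Cntfr and Cyp27a1 (0.76 each), Blnk, Epn3 and Chrng (0.75 each), Snai1 (0.74), and Nr4a1 and Map3k10 (0.73 each), and Scd2 was at 0.62. Srebf1 (0.73) would stand 10th among them if members were counted. Epn3 was the only row in both lists of 10. The limbs share their libraries' depth and the groups, and no p is given.

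The other genes of lipid synthesis were taken from 7 lists, chosen with earlier results of these data known. Of all rows, 20.3% rose and 2.33% fell in atrophy and 28.1% rose and 6.24% fell in repeated atrophy, which are the shares to set beside each count. With the block the shares were 0 and 0 in atrophy and 21.5% and 5.66% in repeated atrophy. The atrophy values of single list genes given here come from the fit without the animal as a block, and with the block none of them passed. All 27 genes that the naming rule picks in atrophy, marker genes included, still passed when atrophy animal 2 was left out, each with a larger change, and the ratio was largest for Hacd1 (1.63, against 1.09). Of 14 genes for acetyl-CoA and NADPH supply, 4 rose and 2 fell in atrophy and 6 rose and 3 fell in repeated atrophy, with medians of 0.26 and 0.33 (rises and falls were 0 and 0 with the block in atrophy, 3 and 3 in repeated atrophy). Me2, the mitochondrial malic enzyme, rose by 1.38 in atrophy (adjusted p = 0.010) and 2.06 in repeated atrophy (adjusted p = 2.6e-04). The pentose phosphate enzymes Taldo1 (0.92 and 1.33) and Pgd (1.13 in repeated atrophy) also rose. Acss1, the mitochondrial acetyl-CoA synthetase, fell from 54.7 ± 9.60 CPM in control to 5.64 ± 0.583 CPM in repeated atrophy, a log2 fold change of -3.05 (adjusted p = 1.9e-05). Me3 (-1.02 and -1.26) and, in repeated atrophy, Mdh1 (-1.07) fell too.

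Of 17 genes of elongation and desaturation, 6 rose and 0 fell in atrophy and 8 rose and 1 fell in repeated atrophy, with medians of 0.47 and 0.34 (0 and 0 with the block in atrophy, 8 and 1 in repeated atrophy). Hacd1, the dehydratase of the elongation cycle that is found mostly in muscle, rose by 1.09 (adjusted p = 0.020) and 1.58 (adjusted p = 0.0010). Elovl1, an elongase of saturated chains, rose by 1.13 in atrophy (adjusted p = 0.0062), and Fads3 by 0.97 (adjusted p = 0.014). Cyb5a, the cytochrome that passes electrons to the desaturases, rose by 1.28 in repeated atrophy (adjusted p = 9.7e-04), and Fads6 fell by 0.85 (adjusted p = 0.010). The 8 genes of mitochondrial fatty acid synthesis gave 1 rise and 0 falls in atrophy (Lipt2, 0.59) and 2 rises and 1 fall in repeated atrophy (Hsd17b8 0.72, Cbr4 0.56 and Ndufab1 -0.44), with medians of 0.33 and 0.27 (0 and 0 with the block in atrophy, 1 and 0 in repeated atrophy). Cbr4 (adjusted p = 0.080) and Ndufab1 (adjusted p = 0.095) did not pass with the block.

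Of 18 genes of glycerolipid synthesis, 3 rose and 1 fell in atrophy and 6 rose and 4 fell in repeated atrophy, with medians of 0.25 and 0.02 (0 and 0 with the block in atrophy, 6 and 5 in repeated atrophy). The acyl-CoA synthetases, which activate fatty acids, moved apart. Acsl4 rose by 1.89 (adjusted p = 0.011) and 2.19 (adjusted p = 0.0017) and Acsl3 by 1.42 (adjusted p = 0.0088) and 2.00 (adjusted p = 2.4e-04), while Acsl6 was at -1.57 (adjusted p = 0.011) and -1.73 (adjusted p = 0.0025). The phosphatidate phosphatases did so as well in repeated atrophy, with Lpin3 at 1.52 (adjusted p = 0.0011) and Lpin1, the muscle form, at -1.27 (adjusted p = 0.0014). Of the acyltransferases of the first step, Gpat4 rose by 0.74 in atrophy (adjusted p = 0.017) and Gpat3 was at -1.13 in repeated atrophy (adjusted p = 4.6e-04).

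The SREBP processing list, which also holds Mid1ip1, gave 4 rises and 0 falls of 14 in atrophy. In repeated atrophy it gave 5 rises and 1 fall, the fall being Mid1ip1. The medians were 0.36 and 0.13 (rises and falls with the block were 0 and 0 in atrophy, 5 and 1 in repeated atrophy). Scap, the escort of SREBP out of the endoplasmic reticulum, rose by 0.91 in repeated atrophy (adjusted p = 0.014), and Mbtps2, a protease that cleaves it, by 0.59 in atrophy (adjusted p = 0.045). Rnf139, a ubiquitin ligase of the same membrane, rose by 0.95 (adjusted p = 0.015) and 1.40 (adjusted p = 5.8e-04), Erlin1 by 0.77 in atrophy (adjusted p = 0.023), and Ufl1 by 0.87 in repeated atrophy (adjusted p = 0.0019). Mid1ip1, a paralogue of Thrsp that activates acetyl-CoA carboxylase, was at -0.90 in repeated atrophy (adjusted p = 0.0040), the direction opposite to that of Thrsp. The cholesterol synthesis list, which is a target of the related SREBP-2, had 10 rises and 0 falls of 21 in atrophy and 10 rises and 1 fall in repeated atrophy, with medians of 0.54 and 0.68 (0 and 0 with the block in atrophy, 7 and 1 in repeated atrophy). Idi1 rose by 1.43 (adjusted p = 0.0073) and 2.08 (adjusted p = 1.3e-04), Lss by 0.98 (adjusted p = 0.038) and 1.40 (adjusted p = 0.0032), and Msmo1 by 0.96 (adjusted p = 0.0085) and 1.32 (adjusted p = 2.8e-04), and Fdft1 was at -0.92 in repeated atrophy (adjusted p = 2.0e-04).

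Of 21 genes of the liver X receptor (LXR), ChREBP and AMP-activated kinase (AMPK) list, 2 rose and 1 fell in atrophy and 4 rose and 5 fell in repeated atrophy, with medians of 0.14 and -0.04 (0 and 0 with the block in atrophy, 3 and 3 in repeated atrophy). Rxrg and Rxra, partners of LXR, were at -1.56 (adjusted p = 0.0015) and -1.25 (adjusted p = 0.0044) in repeated atrophy, and Rxrg was at -1.35 in atrophy (adjusted p = 0.010). Abcg1, an LXR target, rose by 0.98 in repeated atrophy (adjusted p = 0.035; adjusted p = 0.13 with the block). Mlx, the binding partner of ChREBP, rose by 0.61 in atrophy (adjusted p = 0.032). The AMPK subunits moved in both directions, with Prkaa1 at 1.02 in atrophy (adjusted p = 0.015) and 1.43 in repeated atrophy (adjusted p = 8.5e-04), Prkag3 at 1.87 (adjusted p = 0.0017) and Prkaa2 at -0.99 (adjusted p = 0.0024) in repeated atrophy.

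**Figure D5:**
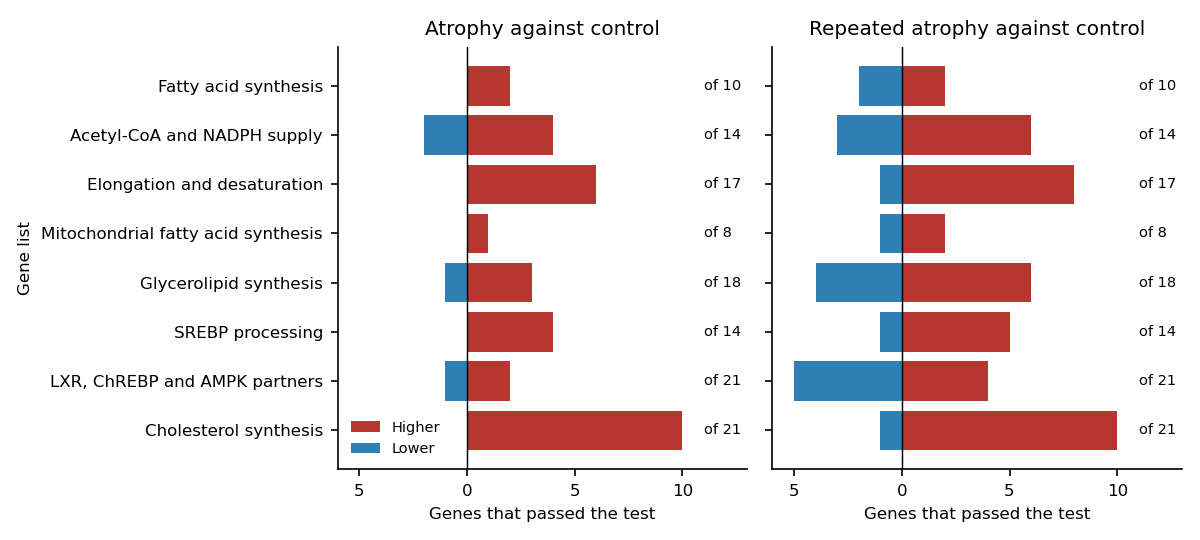
Number of genes that passed higher (to the right of 0) and lower (to the left) in atrophy and repeated atrophy against control, for the 10 members and the 7 lists. The counts are from the fit without the animal as a block, in which cholesterol synthesis has 10 rises of 21 in both groups and the LXR, ChREBP and AMPK list 5 falls of 21 in repeated atrophy. With the block these are 0 and 7 rises and 3 falls.

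Under TMM rescaling, where 4.73% of all rows rose and 4.95% fell in atrophy and 13.1% and 12.1% in repeated atrophy, the counts of rises and falls in atrophy were 2 and 2 for acetyl-CoA and NADPH supply, 1 and 0 for elongation and desaturation, 0 and 0 for mitochondrial synthesis, 2 and 3 for glycerolipids, 0 and 1 for SREBP processing, 3 and 1 for cholesterol and 0 and 2 for the LXR list. In repeated atrophy they were 3 and 3, 7 and 1, 1 and 1, 4 and 5, 2 and 1, 7 and 3, and 2 and 6 in that order. Without atrophy animal 2, where 30.7% of all rows rose and 3.85% fell in atrophy, the counts in atrophy were 5 and 2, 9 and 0, 3 and 0, 7 and 3, 5 and 1, 11 and 0, and 2 and 2 in that order.

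Markers of other cell types were measured beside these results because fat cells express the whole pathway. Of 14 adipocyte markers 13 were in the table, and 1 of the 13 rose in atrophy and in repeated atrophy (Cidea, by 2.39 and 3.51, and with the block in repeated atrophy only) and 0 fell. Their summed level ran from 211 to 392 CPM in the control limbs, and from 314 to 728 CPM in the atrophy and 317 to 672 CPM in the repeated atrophy limbs, with the recovery limbs at 329 to 396 CPM. The sham limbs, with no TTX, were at 351 to 718 CPM on the left and 274 to 768 CPM on the right. The 7 defining markers (Adipoq, Lep, Plin1, Cidec, Cfd, Retn and Adrb3) together were at 5.06 to 27.8 CPM in the control limbs. Both TTX groups lay within that range, with atrophy at 10.5 to 21.4 and repeated atrophy at 7.23 to 16.95 CPM, and the recovery limbs were at 20.9 to 31.4 CPM. The sham limbs were at 16.2 to 40.6 CPM on the left and 12.0 to 37.2 CPM on the right. Macrophage markers ran from 108 to 395 CPM in control, 157 to 504 in atrophy, 123 to 348 in repeated atrophy and 401 to 783 in recovery. They ran from 229 to 702 CPM in the sham left and 255 to 613 CPM in the sham right limbs. Atrophy animal 1, the atrophy limb with the most Scd, held the 504 CPM, above every control limb. Both limbs of sham animal 1 were higher, at 702 CPM on the left and 613 CPM on the right. Their Scd was at 4.15 and 3.76 CPM. Fibroblast markers ran from 227 to 594 CPM in control, 260 to 581 in atrophy and 365 to 585 in repeated atrophy, with recovery at 1101 to 2072. The sham left limbs were at 246 to 705 CPM and the sham right limbs at 287 to 416 CPM. In atrophy and repeated atrophy 0 of 11 macrophage and 0 of 7 fibroblast markers passed. Of 12 muscle fibre markers 2 fell in atrophy and 3 in repeated atrophy, of 11 Schwann cell markers 1 fell in atrophy (Prx), of 7 endothelial markers 1 fell in repeated atrophy (Tie1, lost with the block), and of 4 satellite cell markers 1 rose in atrophy (Myf5) and 1 rose and 1 fell in repeated atrophy (Myf5 and Cdh15). With the block no marker passed in atrophy, and in repeated atrophy 2 muscle fibre, 1 adipocyte and 1 Schwann cell marker fell. Without atrophy animal 2, 2 of 11 macrophage markers and 2 of 13 adipocyte markers rose in atrophy and 0 of 7 fibroblast markers did. The part of these cell types in the levels of Scd and the other members was not tested.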

How the data were processed

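Stranded poly(A) RNA-seq of TA muscle was deposited by the authors as 1 table of CPM values for 24 libraries. The authors filtered reads with Bowtie2 2.2.5, aligned them to rn7 with STAR in Partek Flow and named DESeq2 median of ratios for their own tests. Which annotation was used, and how reads were counted, is not given in the sources used here. Division of reads between rows of 1 symbol could change single rows. Of 27 value columns, 3 matched no sample and were not used. Of 14271 rows, 28 duplicates were dropped. Only 87.7% to 89.5% of low values were whole multiples of the smallest step (tolerance 0.02), so that reads were not recovered and no count test was run.

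Values were tested as log2(CPM + 1) with limma 3.58.1 (R 4.3.3, with trend) over rows above 0 in at least 3 samples, using the 18 limbs of the TTX animals for the main comparisons, with Benjamini-Hochberg adjusted p-values over all rows. Sham limbs and right limbs were fitted separately. Correlations over 12 right limbs used 100000 permutations (scipy 1.17.1, two-sided). The script was tested on simulated data. The labels give 1 animal per pair of limbs, so the limbs are paired; the mean correlation of left and right deviations was 0.124 in the 9 TTX animals and 0.741 in the 3 sham animals, and the block result stands beside the calls of members and list counts that it changes. The p-values of the main fit use a spread pooled over the control, atrophy, recovery and repeated atrophy limbs. That fit treats both limbs of an animal as separate samples, and each left limb group holds only 3 animals.

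The members and all lists were chosen with earlier results of these data known. Genes named from the lists were the 3 with the largest rise and fall among those that passed in each comparison with control, and those most correlated with Scd among rows with a mean of at least 1 CPM; 1 gene that this rule names is not reported here. Promoters were matched by symbol to RefSeq (GRCr8). Alternatives were pseudocounts 0.1 and 10, TMM, median of ratios and quantile rescaling, other filters, blocks, controls and limma settings, and leaving out each animal. The sham right limbs as control (3 limbs, fitted with the atrophy and repeated atrophy limbs) and rows summed per gene were chosen after seeing the data.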

Additional observations from a re-analysis of the deposited data

Results flagged for a closer look

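Me1 in the control group was the single result flagged. The right limb of atrophy animal 2 was at 507 CPM, the highest of the 9 control limbs, and its gap to the next limb was 0.565 of the range of the group, above Dixon's 95% critical value for 9 values. Chance flags about 1 in 20 groups, and Me1 did not pass in any comparison with or without this animal.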

How the results depend on the processing

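Of 916 alternative values of the members' fold changes, 54 changed sign in the tested comparisons (none of a member that had passed, the largest with a value of 0.31 in size), 21 lost a call and 6 gained one. In recovery against control, where nothing is tested, 8 moved by more than the spread of the control limbs, and 10 changed sign, the largest with a value of 0.82 (Thrsp). The cause was not tested. The number of members called in repeated atrophy against control was 2 with the sham right limbs as control (268 of all rows), chosen after seeing the data, and otherwise changed by no more than 1 (4 to 5 without 1 animal, with 2573 to 5254 rows). It was 0 throughout for repeated atrophy against atrophy, the sham limbs and the right limbs. In atrophy against control the count of 2 became 1 with a pseudocount of 10 (2869 of all rows), no filter (3130) or limma without trend (3314). It became 0 with the replicate block, the arm's own right limbs or the sham right limbs as control, each with 0 of all rows. Without 1 animal it ran from 0 to 4, with 1 to 4841 rows. The counts that include the recovery limbs, which chose the set, are descriptions. In recovery against control the count of 2 became 1 with the block (Scd, with 9 of all rows) and 0 with own right limbs (49 rows; 1 to 2 members without 1 animal). Recovery against atrophy went from 0 to 1 under TMM or median of ratios (Elovl5, with 1499 and 1489 rows) or a mean of at least 1 CPM (Thrsp, with 2779 rows; 0 to 1 members without 1 animal). Repeated atrophy against recovery went from 0 to 1 with either pseudocount, TMM, median of ratios, quantile rescaling or a random block, and to 2 with a mean of at least 1 CPM (Srebf1 or Thrsp, with 2931 to 3875 rows; 0 to 2 members without 1 animal). The correlation of Scd and Srebf1 passed under TMM (0.75). The block changed no other call than those given.

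Signs changed as follows. In atrophy, Fasn was 0.20 and Elovl5 0.08 with the block or own right limbs, Acaca was -0.10 (TMM), -0.11 (median of ratios) and -0.10 (quantile), and Elovl6 was -0.00012 (pseudocount 10), -0.04 (TMM), -0.05 (median of ratios), -0.04 (quantile), -0.05 (12 right limbs) and -0.21 (sham right limbs). In recovery, with the block or own right limbs Acly was 0.11 and Elovl6 -0.04, with rows summed per gene Acly was 0.25, and Acaca was -0.03 (quantile). In repeated atrophy, under TMM, median of ratios and quantile rescaling, Acaca was -0.26, -0.27 and -0.20, Elovl5 -0.13, -0.13 and -0.07, and under the first 2 Acly was -0.03 and -0.04 and Elovl6 -0.02 and -0.02, and with the sham right limbs these 4 were -0.02, -0.34, -0.13 and -0.16. Between repeated atrophy and atrophy, with the fixed block Thrsp was 1.13, Me1 0.21 and Elovl5 -0.01, with the random block Thrsp was 0.10 and Me1 0.01, and with rows summed per gene, chosen after seeing the data, Acly was 0.04. Without 1 animal, the ranges that crossed 0 were, in atrophy, Acaca -0.07 to 0.53, Elovl5 -0.34 to 0.10, Elovl6 -0.06 to 0.06 and Me1 -0.23 to 0.28; in recovery, Acaca -0.09 to 0.22, Acly -0.39 to 0.27, Elovl6 -0.12 to 0.43 and Thrsp -0.03 to 1.31; in repeated atrophy, Acaca -0.30 to 0.63 and Elovl6 -0.03 to 0.10; and between the TTX groups, Acaca -0.54 to 0.41, Acly -0.50 to 0.08, Elovl6 -0.06 to 0.12, Me1 -0.37 to 0.17 and Thrsp -0.47 to 0.35.

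Over all rows, 3171 passed in atrophy on the deposited scale, 1358 under TMM and 0 with the block. The numbers were 1084, 1692 and 9 in recovery and 4812, 3539 and 3806 in repeated atrophy. In atrophy 1 row passed without atrophy animal 1, 4841 without animal 2, 1830 without animal 3 and 2072 without recovery animal 1, and in repeated atrophy 2573 without repeated atrophy animal 2. Depth limits Elovl6, at or near 0 in many limbs, and with 3 limbs a group a miss of the threshold does not show that levels were alike.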
